A study of Mus musculus with 24 samples.

Results

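At postnatal day 20, mouse testis with a homozygous knockout (KO) of *Atad2* was compared with wild-type (WT) testis across all genes counted, in 4 KO and 4 WT RNA sequencing libraries out of 24 in the series. The libraries were chosen by genotype and day alone. A name such as KO_d20_3 gives genotype, day and replicate number. ATAD2 is a chromatin protein that carries both an ATPase and a bromodomain, and the mice were used to ask what it does in spermatogenesis. WT males carried the intact gene. KO males were homozygous for an allele in which a *lacZ* cassette joins exon 11 to β-galactosidase, and a Cre recombinase driven by the *CMV* promoter, active in all tissues, had removed the *neo* cassette and exon 12. The loss is therefore not limited to germ cells. Nothing in the labels says which mouse each testis sample came from, so the p-values measure the spread between these samples. The other 16 libraries, from days 22, 24 and 26, enter the fit for its estimate of the spread and the filter of genes to test. They are used below to see how the genes that changed at day 20 behave later.

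Day 20 falls in the first wave of spermatogenesis, when the germ cells of a young male advance together. Most germ cells are then spermatocytes in meiotic prophase, and the first round spermatids are only starting to form. Spermatids switch on genes for the acrosome, the flagellum and sperm metabolism that are little used earlier, and later replace their histones by transition proteins and protamines. RNA was taken from testis as a whole, so that more or fewer cells of a type and more or less RNA per cell cannot be told apart. Markers of somatic cells were present in every library: the summed level of the Sertoli cell list lay between 2324 and 3303 CPM, counts scaled to library size, that of the Leydig cell list between 341 and 878 CPM and that of the peritubular list between 759 and 1459.9 CPM.

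The libraries held 10709667 to 15782741 counts assigned to genes. CPM are not divided by gene length, so levels are compared between libraries for 1 gene and never between genes. At this depth 3 counts in the shallowest WT library correspond to 0.316 CPM. WT_d20_2 stood apart. It was the shallowest, 13.7% of its read pairs aligned to more than 1 place against 5.98% to 8.8% in the other libraries, and mitochondrial ribosomal RNA took 3.26% of its gene counts (95% Wilson interval 3.25% to 3.27%) against 0.37% to 0.816%. Such intervals, and the floor of 3 counts, cover counting error only. Epididymis markers were seen at 279 CPM in WT_d20_3 and 55.1 CPM in KO_d20_3, and at 2.21 to 6.05 CPM in the other libraries. For the main gene groups, counts are also given without each library that moves them by more than 1.5 times.

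*Atad2* itself, at chr15:58094044-58135082 (minus strand), was lower in every KO library. Its level was 30.8, 37.1, 36 and 32.2 CPM in KO replicates 1 to 4 and 92.7, 171, 76.4 and 94 CPM in WT replicates 1 to 4. The groups did not overlap, and WT_d20_2 was the highest WT library. This is a log2 fold change of -1.67 (SE 0.18, adjusted p = 5.7e-05). Without WT_d20_2 it was -1.38, and it remained past the threshold. With the day 20 libraries fitted alone it was -1.68, just outside the threshold (adjusted p = 0.0658). Counts were made per gene over all exons, so what remains in KO includes the transcript of the targeted allele.

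In KO testis at day 20, 511 genes rose and 62 fell among 17170 tested, which is 2.98% and 0.361% of the genes and 3.34% in all. Of the rises, 353 had a WT mean under 1 CPM, and spermatid genes such as *Acrv1*, *Gapdhs* and *Spam1* were among them. The rises had a median log2 fold change of 3.02 (2.97 with the 13 genes at 0 in all WT libraries placed at their bound). The falls were fewer and smaller, with a median of -1.06, and included *Asb4*, *Cd3e*, *Nps* and several noncoding transcripts. The median over all genes tested was 0.00. The test was the quasi-likelihood test of edgeR with a threshold of 0.05 on the adjusted p, and 2141 genes had an unadjusted p under 0.05. With the 8 day 20 libraries fitted alone, none rose and 5 fell (0.0328% of 15265 genes), with 934 genes at an unadjusted p under 0.05. Only 327 of the 511 rises and 59 of the 62 falls were tested in that fit, with median log2 fold changes of 2.52 and -1.05. DESeq2 over all libraries gave 760 rises (4.2%) and 128 falls (0.708%). Without WT_d20_2 the counts were 260 (1.51%) and 61 (0.355%), and without WT_d20_3 102 (0.596%) and 49 (0.286%). They were 159 (0.925%) and 26 (0.151%) without KO_d20_4, 247 (1.44%) and 30 (0.175%) without KO_d20_3 and 227 (1.32%) and 42 (0.244%) without WT_d20_1.

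**Figure D1:**
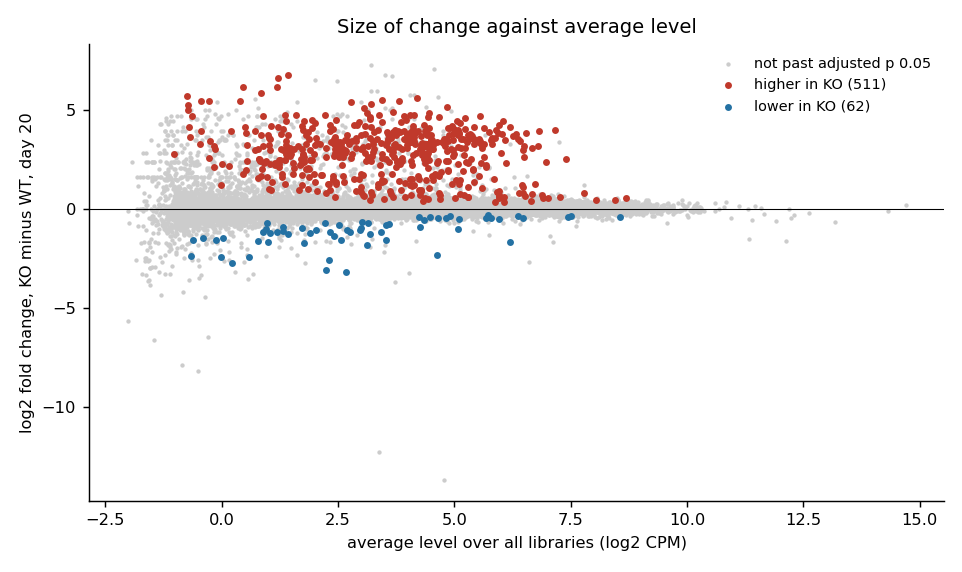
Log2 fold change of KO against WT at day 20 (vertical axis) against average level in log2 CPM over all libraries (horizontal axis); each point is 1 of 17170 genes, in red where higher in KO at an adjusted p under 0.05 (511 genes) and in blue where lower (62 genes). The rises mostly have large fold changes, and the falls smaller ones. The horizontal axis covers all days, so genes low in WT at day 20 can lie at a higher average level. *Akap4*, with a day 20 WT mean of 1.11 CPM, lies at 7.17.

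The rises and the falls differed in how the libraries were ordered. Of the falls, 55 of 62 had every KO library below every WT library, where 1.68% of all genes tested had this. Of the rises, 275 of 511 had every KO library above every WT library, where 3.03% of all genes had this. Since calls and non-overlap come from the same values, these shares describe the calls and were not tested. Over the 511 rises the median level was 2.03, 0.915, 4.76 and 6.64 CPM in KO replicates 1 to 4 and 0.314, 0.316, 0.173 and 0.936 CPM in WT replicates 1 to 4. KO_d20_4 was the highest KO library for 411 of the rises, and KO_d20_2 the lowest for 472. WT_d20_4 was the highest WT library for 362. So the rises moved up and down together between libraries of 1 genotype. Over the 62 falls the median level was 3.88, 3.76, 2.81 and 2.64 CPM in KO and 8.02, 9.0, 6.01 and 7.49 CPM in WT, in the same order, a narrower range within each genotype. 23 of 62 falls and 95 of 511 rises were called in each of the 8 fits that leave out 1 day 20 library.

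The promoters of the changed genes were searched for 16 short letter strings on both strands, using RefSeq promoters of build GRCm38.p6 (the same coordinates as mm10) that run from 250 bases before to 50 bases after a start site. A promoter was found for 390 of 511 rises, 46 of 62 falls and 12861 of 17170 tested genes. GTTGCC and the longer GTTGCCATG, which contains it, are forms of the X-box that RFX factors bind, and CTGGCAACC holds GTTGCC on the other strand. GTTGCC was in 24.4% of the promoters of rises, 8.7% of falls and 13.5% of tested genes. GTTGCCATG was in 3.33%, 0% and 0.746% of the same 3 sets, and CTGGCAACC in 1.54%, 0% and 0.482%. TGACGTCA is the full element bound by CREM and related factors, and TGACG its core, which it contains. TGACGTCA was in 2.82%, 4.35% and 2.98% and TGACG in 16.7%, 37% and 28.6%. Each variant contains TGACG. TGACGTNA was in 3.59%, 6.52% and 4.65%, TGACGTAA in 0.513%, 0% and 0.785% and TGACGCAA in 0.513%, 0% and 0.824%. Of other strings, CCAAT was in 41%, 43.5% and 38.3%, TATAAA in 11%, 13% and 8.02% and AGGAAG in 32.8%, 34.8% and 33.3%. The shares were 17.4%, 21.7% and 11.7% for CAACTG, 22.3%, 26.1% and 18.4% for CACCTG and 12.6%, 10.9% and 6.78% for ATTGTT. They were 15.4%, 15.2% and 7.67% for CAGTTA and 1.03%, 2.17% and 0.949% for AACTGTCA. The X-box strings stood higher in rises than in tested genes, as did several others such as CAGTTA, and TGACG stood lower, which is a description without a test. The median GC content of these promoters was 49.3% for rises, 54.2% for falls and 59.7% for tested genes, and its part in the shares was not tested. A match is a description of the letters and not of binding.

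The 250 bases before the start site are shown for 2 large rises that hold GTTGCCATG on 1 strand or the other, for *Spag6l*, which holds TGACGTCA, and for the largest fall among genes without overlap, which holds TGACG. Capitals mark the match. The *Apobec4* promoter is chr1:152750301-152750550 (plus strand), that of *4930515L19Rik* is chrX:46328912-46329161 (minus strand), with the match read on the opposite strand, that of *Spag6l* is chr16:16829364-16829613 (minus strand) and that of *4933406K04Rik* is chr12:106716325-106716574 (minus strand). The matches begin 32, 23, 9 and 32 bases before the RefSeq start site. For *Spag6l* and *4933406K04Rik* that site differs from the start in the gene annotation, which lies at 16829456 and 106716362. Both of these matches therefore fall inside the annotated gene.
*Apobec4*: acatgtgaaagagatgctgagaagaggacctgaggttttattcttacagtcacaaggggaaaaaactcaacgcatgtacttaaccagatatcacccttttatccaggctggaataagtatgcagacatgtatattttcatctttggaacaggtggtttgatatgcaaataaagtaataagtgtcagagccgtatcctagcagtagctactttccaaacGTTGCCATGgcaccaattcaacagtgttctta
*4930515L19Rik*: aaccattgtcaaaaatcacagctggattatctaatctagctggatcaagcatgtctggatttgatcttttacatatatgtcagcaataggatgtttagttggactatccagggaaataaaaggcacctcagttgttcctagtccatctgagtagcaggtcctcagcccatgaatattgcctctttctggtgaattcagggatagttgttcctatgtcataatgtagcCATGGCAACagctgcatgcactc
*Spag6l*: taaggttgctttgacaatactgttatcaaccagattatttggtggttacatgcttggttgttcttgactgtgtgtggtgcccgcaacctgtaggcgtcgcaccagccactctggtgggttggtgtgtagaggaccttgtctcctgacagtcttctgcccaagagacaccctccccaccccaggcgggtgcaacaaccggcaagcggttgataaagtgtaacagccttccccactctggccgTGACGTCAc
*4933406K04Rik*: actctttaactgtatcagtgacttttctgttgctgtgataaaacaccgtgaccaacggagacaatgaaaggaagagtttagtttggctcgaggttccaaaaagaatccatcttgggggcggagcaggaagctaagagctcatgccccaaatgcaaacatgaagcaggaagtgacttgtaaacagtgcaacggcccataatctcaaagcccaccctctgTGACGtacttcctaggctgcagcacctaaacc

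Of the 62 falls, 14 were long noncoding transcripts. The largest fall among genes whose groups did not overlap was the long noncoding transcript *4933406K04Rik*, at chr12:106685607-106716362 (minus strand), whose promoter is the printed one with TGACG. It was at 0.798, 0.785, 0.594 and 0.745 CPM in the KO libraries and 6.52, 7.16, 5.14 and 6.62 CPM in the WT libraries. The KO libraries lay close together, far below WT_d20_3, the lowest in WT. Its log2 fold change was -3.10 (SE 0.31, adjusted p = 1.66e-05). Another long noncoding transcript, *A330076C08Rik*, at chr13:44185760-44216487 (minus strand), was at 0.943, 1.24, 1.19 and 1.08 CPM in KO and 8.09, 8.74, 3.53 and 6.55 CPM in WT. WT_d20_3 was the lowest WT library and still above all KO libraries (log2 fold change -2.57, SE 0.26, adjusted p = 1.66e-05).

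*H2afy3*, which the annotation at chr15:62218221-62219332 (minus strand) gives as a processed pseudogene and whose symbol belongs to the macroH2A family of histone variants, was at 2.68, 2.81, 2.51 and 2.3 CPM in KO and 13.4, 7.27, 7.51 and 8.71 CPM in WT. It lies on the same chromosome as *Atad2*, and no other of the 62 falls does. Its log2 fold change was -1.84 (SE 0.24, adjusted p = 0.000465). Reads that align to more than 1 place were discarded, so the level of such a gene copy is uncertain. *Cd3e*, a subunit of the T cell receptor complex (chr9:44998740-45009627, minus strand), was at 0.725, 0.589, 0.396 and 0.88 CPM in KO and 3.77, 2.95, 4.57 and 2.59 CPM in WT, without overlap (log2 fold change -2.42, SE 0.32, adjusted p = 0.000541). Chosen after their values were seen, *Cd3d*, another subunit of that complex, had a log2 fold change of -1.33 (SE 0.66) and the leukocyte gene *Ptprc* of 0.10 (SE 0.31), and neither passed. *Nps*, which encodes the precursor of the neuropeptide S (chr7:135258703-135272942, plus strand), was at 0.435, 0.196, 0.33 and 0.271 CPM in KO and 2.75, 2.53, 1.79 and 1.37 CPM in WT (log2 fold change -2.74, SE 0.39, adjusted p = 0.000979). *4933406K04Rik*, *A330076C08Rik*, *H2afy3*, *Cd3e* and *Nps* were the 5 genes called when the day 20 libraries were fitted alone, with adjusted p between 0.000509 and 0.0347.

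*Asb4*, an imprinted gene for a substrate adaptor of a ubiquitin ligase, also fell. It was at 7.83, 3.86, 4.16 and 3.18 CPM in KO and 32.5, 14.4, 17.9 and 29.4 CPM in WT, and KO_d20_1, the highest KO library, did not reach WT_d20_2, the lowest of WT (log2 fold change -2.31, SE 0.30, adjusted p = 0.000465). *Asb4* was the only called member among 54 imprinted genes tested, where 3.34% of all genes were called, and the list median was -0.08. *Samd7*, known as a transcriptional repressor of photoreceptors, was at 5.8, 4.64, 4.09 and 5.76 CPM in KO and 15.5, 8.95, 12 and 11.7 CPM in WT (log2 fold change -1.25, SE 0.18, adjusted p = 0.000979). *Fam13c* was at 14.9, 15.2, 12.7 and 13.1 CPM in KO and 32.5, 22.9, 25.3 and 26.1 CPM in WT (log2 fold change -0.93, SE 0.13, adjusted p = 0.000979). *Col25a1*, a membrane-bound collagen, was at 4.06, 4.18, 2.84 and 3.52 CPM in KO and 8.49, 7.27, 8.84 and 8.35 CPM in WT (log2 fold change -1.18, SE 0.17, adjusted p = 0.000979). In none of these genes did a KO library reach a WT library.

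Further large falls were at low level. *Stac*, an adaptor protein of calcium channels, was at 0, 0.262, 0.198 and 0.339 CPM in KO and 0.943, 1.47, 0.983 and 1.08 CPM in WT (log2 fold change -2.40, SE 0.45, adjusted p = 0.00733), so that KO lay near the floor of detection. *Thsd7a*, a membrane protein with thrombospondin repeats, was at 1.02, 0.915, 1.98 and 1.35 CPM in KO and 4.64, 4.84, 5.09 and 3.02 CPM in WT (log2 fold change -1.73, SE 0.29, adjusted p = 0.00438). In both, every KO library was below every WT library. *Kcnab1*, a regulatory subunit of voltage-gated potassium channels, had the largest fitted fall of all, -3.21 (SE 0.72, adjusted p = 0.0166), but its groups overlapped. It was at 0.363, 0.589, 0.594 and 1.35 CPM in KO and 13, 12.8, 1.1 and 1.01 CPM in WT: WT replicates 1 and 2 were high, and WT replicates 3 and 4 were within the range of KO. It was called in 5 of the 8 fits that leave out a library, and its adjusted p was 0.0636 in edgeR without WT_d20_2.

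Lists of neuronal receptor, adhesion and channel genes had medians near 0, and single members were called in either direction. *Grik2*, a kainate receptor subunit, fell from 7.94, 8.85, 4.97 and 6.98 CPM in WT to 3.63, 4.97, 1.92 and 2.17 CPM in KO (log2 fold change -1.17, SE 0.25, adjusted p = 0.0115). *Gabra5*, a GABA receptor subunit, rose by 2.24 (SE 0.54) on the log2 scale. Over 36 tested receptor genes for glutamate, GABA and glycine the median was 0.01, with 2 called higher and 1 lower, where 2.98% and 0.361% of all genes tested were. Higher calls in this list numbered 0 without WT_d20_1, 1 without WT_d20_2, 0 without WT_d20_3, 0 without KO_d20_3 and 0 without KO_d20_4, and without KO_d20_4 none was called lower. *Mdga2*, an adhesion protein that binds neuroligins at synapses, was at 3.12, 2.62, 2.77 and 2.64 CPM in KO and 5.82, 7.06, 3.93 and 6.62 CPM in WT (log2 fold change -1.06, SE 0.19, adjusted p = 0.00609), and *Cntn6*, a contactin, rose by 1.26 (SE 0.31). They were the 2 called members of 47 genes of neuronal adhesion, a share near the 3.34% of all genes called, and *Cntn6* lost its call without WT_d20_1, WT_d20_3, WT_d20_4, KO_d20_3 or KO_d20_4. Of 68 potassium channel subunits, *Kcnab1* fell, and *Kcne3*, *Kcnj6* and the sperm channel *Kcnu1* were among the 4 that rose. That count was 2 without WT_d20_1, 1 without WT_d20_2, 0 without WT_d20_3, 2 without KO_d20_3 and 1 without KO_d20_4. *Gabra5*, *Cntn6*, *Kcnj6* and *Kcnu1* were called in 4, 3, 5 and 3 of the 8 fits that leave out a library, and without WT_d20_2 *Kcnj6* and *Kcnu1* lost the call (adjusted p = 0.0522 and 0.0595). The log2 fold changes were 3.75 (SE 0.73) for *Kcne3*, 2.77 (SE 0.58) for *Kcnj6* and 1.46 (SE 0.33) for *Kcnu1*.

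Apart from *Atad2* itself, the falls of highest level were modest. *Gm2a*, the activator protein of ganglioside breakdown in lysosomes, was at 383, 343, 347 and 352 CPM in KO and 511, 444, 478 and 446 CPM in WT (log2 fold change -0.40, SE 0.09, adjusted p = 0.0165). *Vcl*, the junction protein vinculin, was at 164, 194, 181 and 184 CPM in KO and 226, 249.9, 249 and 236 CPM in WT (log2 fold change -0.41, SE 0.10, adjusted p = 0.0243). The log2 fold change was -0.38 (SE 0.10) for *Sept6*, a septin, and -0.38 (SE 0.10) for *Bod1l*, which protects stalled replication forks. *Taf1*, the bromodomain subunit of the general factor TFIID, was at 98.9, 110.3, 96.2 and 89.8 CPM in KO and 126, 184, 106 and 123 CPM in WT, with a log2 fold change of -0.44 (SE 0.12, adjusted p = 0.0463). KO_d20_2 exceeded WT_d20_3 for this gene. *Taf1* was the only called gene of 37 bromodomain proteins and acetyltransferases, a list in which *Atad2* itself was not counted and a share near the 3.34% of all genes called, and the median of that list was -0.06. Without WT_d20_2, the highest library for *Taf1*, its log2 fold change was -0.27, and no gene of the list was called. *Gm2a*, *Vcl*, *Sept6*, *Bod1l* and *Taf1* were called in 4, 2, 5, 1 and 3 of the 8 fits that leave out a library, and without WT_d20_2 *Bod1l* and *Taf1* lost the call (adjusted p = 0.0791 and 0.0674).

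**Figure D2:**
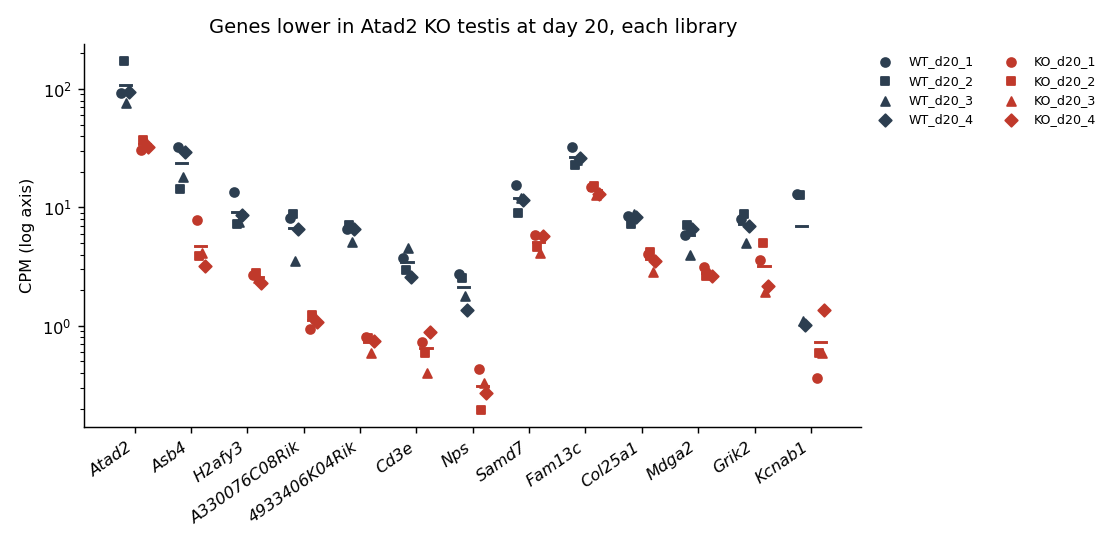
CPM on a log axis for 13 genes lower in KO at day 20; each symbol is a library (dark blue WT, red KO, shape by replicate number) and each short line the group mean of 4 libraries. KO symbols lie below all WT symbols for 12 of these genes, and *Kcnab1* shows 2 WT libraries at the level of KO.

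Genes of the acrosome, the secretory vesicle that covers the sperm head and carries the egg-binding and egg-penetrating proteins, rose in KO testis. Of 35 tested genes of the acrosome and sperm-egg fusion list, 18 rose and none fell, against 2.98% and 0.361% of all genes, and the list median was 2.86 (2.37 with genes at their bound). *Acrv1*, an acrosomal matrix protein of round spermatids, was at 6.09, 2.48, 17 and 30.4 CPM in KO and 0.472, 0.316, 0.578 and 2.09 CPM in WT. Every KO library was above every WT library, but KO_d20_2 only just, and the KO libraries spread widely. Its log2 fold change was 3.96 (SE 0.72, adjusted p = 0.00733). *Spam1*, a sperm hyaluronidase, was at 4.5, 1.5, 13.1 and 20.2 CPM in KO and 0.314, 0.316, 0.289 and 1.94 CPM in WT. KO_d20_2 was below WT_d20_4, so that the groups overlapped (log2 fold change 3.74, SE 0.72, adjusted p = 0.00926). *Zp3r*, which takes part in binding to the egg coat, was at 3.77, 0.981, 9.44 and 16.8 CPM in KO and 0.393, 0.421, 0.462 and 1.37 CPM in WT (log2 fold change 3.51, SE 0.66, adjusted p = 0.00904). *Spaca1*, a membrane protein of the acrosome, was at 7.25, 3.07, 11.6 and 16.8 CPM in KO and 2.12, 2.11, 1.79 and 3.82 CPM in WT (log2 fold change 1.97, SE 0.43, adjusted p = 0.0146). *Dcst1*, needed for sperm-egg fusion, was at 1.38, 0.589, 5.28 and 8.19 CPM in KO and 0.314, 0, 0.0578 and 0.576 CPM in WT (log2 fold change 3.94, SE 0.78, adjusted p = 0.0106). Members that spermatocytes already express did not pass: the acrosin gene *Acr* had a log2 fold change of 0.25 (SE 0.25), *Acrbp* of 0.27 (SE 0.23) and *Zpbp* of 0.36 (SE 0.12). The count of rises in the list was 7 without WT_d20_1, 6 without WT_d20_2, 3 without WT_d20_3 and 5 without KO_d20_4. It was 1 with a score of round spermatid against pachytene markers in the fit, and that score holds members of this list. *Acrv1*, *Spam1*, *Zp3r*, *Spaca1* and *Dcst1* were called in 8, 7, 8, 4 and 7 of the 8 fits that leave out a library, and without WT_d20_2 *Spaca1* lost the call (adjusted p = 0.0622).

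Of 19 testis-specific serine kinases and actin-like genes, which shape the sperm head and its perinuclear shell, 12 rose, where 2.98% of all genes did (list median 3.20, or 3.12 with bounds). *Actl7a*, an actin-like protein of the acrosome border, was at 4.35, 1.18, 11.2 and 19.5 CPM in KO and 0.55, 0.527, 0.347 and 1.73 CPM in WT (log2 fold change 3.51, SE 0.73, adjusted p = 0.0119). *Capza3*, a germ cell subunit of the actin capping protein, was at 2.68, 0.589, 7.46 and 11.2 CPM in KO and 0.0786, 0, 0.116 and 0.72 CPM in WT (log2 fold change 4.45, SE 0.88, adjusted p = 0.0104). The kinase *Tssk2* was at 2.61, 1.11, 6.67 and 14.3 CPM in KO and 0.472, 0.105, 0.173 and 1.3 CPM in WT, and *Tssk4* at 4.06, 0.85, 7.66 and 12.6 CPM in KO and 0.864, 0.948, 1.04 and 1.66 CPM in WT. For each of these genes KO_d20_4 was the highest library and KO_d20_2 lay within or close to the range of WT. The list count was 2 without WT_d20_1, 1 without WT_d20_2, 0 without WT_d20_3, 2 without KO_d20_3 and 1 without KO_d20_4. *Actl7a*, *Capza3*, *Tssk2* and *Tssk4* were called in 5, 7, 3 and 3 of the 8 fits that leave out a library, and without WT_d20_2 *Actl7a*, *Tssk2* and *Tssk4* lost the call (adjusted p = 0.0567, 0.0887 and 0.0718).

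The structural genes of the sperm tail rose in part. Of 23 genes of the outer dense fibres, the fibrous sheath and the tektins, 10 rose, against 2.98% of all genes, with a list median of 0.56. This count was 3 without WT_d20_1, 2 without WT_d20_2, 1 without WT_d20_3, 6 without KO_d20_3 and 2 without KO_d20_4. *Akap4*, the main protein of the fibrous sheath, was at 7.04, 2.42, 20.4 and 40.2 CPM in KO and 0.55, 0.842, 0.462 and 2.59 CPM in WT. KO_d20_2 lay below WT_d20_4 (log2 fold change 3.97, SE 0.82, adjusted p = 0.0118). Its partner *Akap3* was at 17.6, 9.87, 42.9 and 69.1 CPM in KO and 5.97, 2.32, 4.57 and 11.2 CPM in WT, again with overlap at KO_d20_2 (log2 fold change 2.51, SE 0.54, adjusted p = 0.0144). *Odf1*, of the outer dense fibres, was at 5.15, 1.9, 10.5 and 20.2 CPM in KO and 0.943, 0.316, 0.231 and 1.87 CPM in WT, and KO_d20_2 exceeded WT_d20_4 by a small margin (log2 fold change 3.47, SE 0.71, adjusted p = 0.0114). *Tekt4*, a filament protein that spermatocytes also express, behaved more evenly. It was at 58.2, 35.9, 53.4 and 55.3 CPM in KO and 28, 17.6, 15.3 and 34.4 CPM in WT, without overlap (log2 fold change 1.09, SE 0.22, adjusted p = 0.011), and it was called in all 8 fits that leave out a library. *Akap4*, *Akap3* and *Odf1* were called in 4, 4 and 5 of the 8 fits that leave out a library, and without WT_d20_2 *Akap4*, *Akap3* and *Odf1* lost the call (adjusted p = 0.0567, 0.0636 and 0.0551).

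The axoneme is the motor and scaffold of the flagellum. Of 35 genes tested in its list, 2 rose, where 2.98% of all genes did, and the list median was 0.12. The count was 1 without WT_d20_1, 1 without WT_d20_3, 1 without KO_d20_1, 1 without KO_d20_3 and 1 without KO_d20_4. *Spag6l*, of the central pair apparatus, whose promoter is the printed one with TGACGTCA, was at 9.0, 4.12, 19.4 and 26.8 CPM in KO and 1.26, 0.737, 0.809 and 3.24 CPM in WT (log2 fold change 3.27, SE 0.55, adjusted p = 0.0053). *Cfap61*, of the radial spokes, was at 14.2, 10.1, 14.1 and 12.7 CPM in KO and 8.49, 10.4, 5.55 and 9.0 CPM in WT (log2 fold change 0.62, SE 0.16, adjusted p = 0.0316), and its groups overlapped. Among sperm ion channels and transporters, 6 of 21 rose, with a list median of 0.34, and this count was 1 without WT_d20_1, 1 without WT_d20_2, 1 without WT_d20_3 and 1 without KO_d20_4. *Catsper1*, a pore subunit of the sperm calcium channel CatSper, was at 2.54, 0.85, 10.5 and 17.5 CPM in KO and 0.55, 0.105, 0.116 and 1.37 CPM in WT (log2 fold change 3.83, SE 0.83, adjusted p = 0.0146). The pore subunit *Catsper4* had a log2 fold change of 3.81 (SE 0.80, adjusted p = 0.0127). *Efcab9*, a calcium sensor of the channel, was at 2.32, 1.96, 7.07 and 8.74 CPM in KO and 0.393, 0.527, 0.405 and 1.15 CPM in WT, without overlap (log2 fold change 3.01, SE 0.52, adjusted p = 0.00569). The accessory subunits *Catsperb* and *Catsperd*, with log2 fold changes of 0.23 (SE 0.19) and 0.09 (SE 0.15), did not pass. *Cfap61*, *Catsper1*, *Catsper4* and *Efcab9* were called in 3, 4, 4 and 8 of the 8 fits that leave out a library, and without WT_d20_2 *Catsper1* and *Catsper4* lost the call (adjusted p = 0.0636 and 0.0551).

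**Figure D3:**
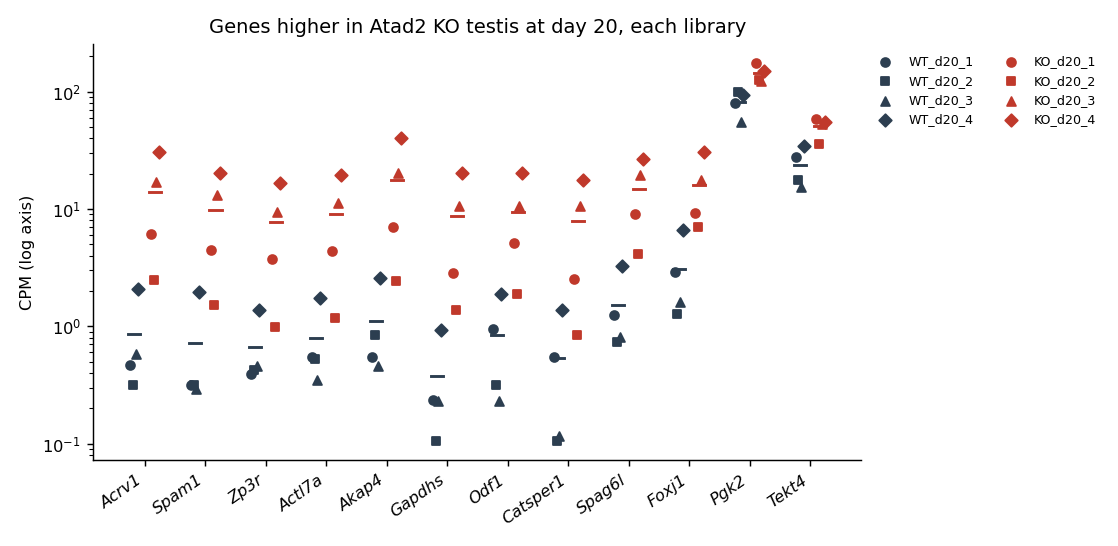
CPM on a log axis for 12 genes higher in KO at day 20; each symbol is a library (dark blue WT, red KO, shape by replicate number) and each short line the group mean of 4 libraries. For the 8 genes from *Acrv1* to *Catsper1* KO_d20_4 is the highest library and KO_d20_2 the lowest KO library, whereas *Pgk2* and *Tekt4* are more even.

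Sperm metabolism genes rose in 5 of 21 cases (list median 0.27), where 2.98% of all genes did, and in 3 without WT_d20_2, 2 without WT_d20_3 and 3 without KO_d20_4. *Gapdhs*, the glycolytic enzyme isoform fixed to the sperm tail, was at 2.83, 1.37, 10.6 and 20.1 CPM in KO and 0.236, 0.105, 0.231 and 0.936 CPM in WT (log2 fold change 4.45, SE 0.90, adjusted p = 0.011). The aldolase retrogenes *Aldoart1* and *Aldoart2* were both without overlap. *Aldoart2* was at 4.79, 2.42, 11.4 and 17.2 CPM in KO and 1.41, 0.632, 0.809 and 1.37 CPM in WT (log2 fold change 3.06, SE 0.55, adjusted p = 0.00676), and *Aldoart1* had a log2 fold change of 3.04 (SE 0.57, adjusted p = 0.00901). *Pgk2*, the phosphoglycerate kinase that replaces the X-linked enzyme in meiotic and later cells, was at 176, 125, 123 and 149 CPM in KO and 79.7, 99.3, 55.3 and 93.9 CPM in WT, a smaller and more even rise (log2 fold change 0.80, SE 0.18, adjusted p = 0.0131). *Ldhc*, the lactate dehydrogenase of spermatocytes, had a log2 fold change of 0.31 (SE 0.16) and did not pass. *Gapdhs* and *Pgk2* were called in 6 and 6 of the 8 fits that leave out a library, and without WT_d20_2 *Gapdhs* lost the call (adjusted p = 0.0551).

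Of the 6 rises with the highest level over all 24 libraries, *Akap3*, given above, had a log2 fold change of 2.51 (SE 0.54), and the others were smaller. *Papolb*, a cytoplasmic poly(A) polymerase of the testis, was at 341, 275, 263 and 281 CPM in KO and 234, 197, 144 and 215 CPM in WT (log2 fold change 0.55, SE 0.14, adjusted p = 0.0238). *Pgp*, a phosphatase that clears a glycolytic side product, was at 122, 112, 106 and 117 CPM in KO and 80.7, 70.3, 67.6 and 81.4 CPM in WT, and it was called in all 8 fits that leave out a library (log2 fold change 0.61, SE 0.11, adjusted p = 0.00692). *Cog6*, a Golgi tethering subunit, rose by 0.44 (SE 0.11), and *Tdrd7*, a Tudor protein of the chromatoid body, by 0.42 (SE 0.11). For these 4 genes all KO libraries were above all WT libraries. *Tdrd7* was the 1 called gene of 24 in the piRNA pathway, and the kinase *Plk1* (log2 fold change 0.90, SE 0.23, adjusted p = 0.0297) the 1 called gene of 33 of meiotic division, where 2.98% of all genes tested rose. *Papolb*, *Cog6*, *Tdrd7* and *Plk1* were called in 4, 5, 3 and 4 of the 8 fits that leave out a library, and without WT_d20_2 *Papolb*, *Cog6* and *Tdrd7* lost the call (adjusted p = 0.0512, 0.0602 and 0.0928).

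Among 31 transcription regulators of meiosis and spermatids, 3 rose, where 2.98% of all genes did, and 1 without WT_d20_2, 1 without WT_d20_3 and 1 without KO_d20_4. *Foxj1*, the master regulator of motile cilia, was at 9.29, 7.06, 17.7 and 30.3 CPM in KO and 2.91, 1.26, 1.62 and 6.55 CPM in WT, without overlap (log2 fold change 2.36, SE 0.45, adjusted p = 0.00922). *Hsfy2*, a heat shock factor homologue, was at 2.61, 1.11, 5.88 and 11.6 CPM in KO and 0.157, 0.211, 0.0578 and 0.792 CPM in WT (log2 fold change 4.10, SE 0.87, adjusted p = 0.0129). *Spz1*, a spermatogenic leucine zipper protein, was at 7.18, 2.94, 15.9 and 30.7 CPM in KO and 2.12, 0.948, 1.5 and 2.52 CPM in WT (log2 fold change 2.97, SE 0.64, adjusted p = 0.0138). *Crem*, the activator that drives many spermatid genes, had a log2 fold change of 0.29 (SE 0.15), and *Rfx2*, which drives ciliary genes in spermatids, of 0.35 (SE 0.28), and neither passed. *Foxj1*, *Hsfy2* and *Spz1* were called in 8, 4 and 5 of the 8 fits that leave out a library, and without WT_d20_2 *Hsfy2* and *Spz1* lost the call (adjusted p = 0.0592 and 0.0649).

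Genes of the exchange of histones for protamines rose at 1 of 21, *Nutm1*, a partner of the acetyltransferase p300, at 8.78, 8.24, 18.2 and 23.3 CPM in KO and 5.74, 4.95, 5.55 and 7.92 CPM in WT (log2 fold change 1.27, SE 0.29, adjusted p = 0.0166), where 2.98% of all genes rose. DESeq2 called 4 of the list higher, and edgeR 0 without WT_d20_1, 0 without WT_d20_2, 0 without WT_d20_3, 2 without KO_d20_1, 3 without KO_d20_2, 0 without KO_d20_3 and 0 without KO_d20_4. *Nutm1* was called in 3 of the 8 fits that leave out a library, and without WT_d20_2 *Nutm1* lost the call (adjusted p = 0.0746). The transition protein gene *Tnp1* was at 0.145, 0, 0.793 and 2.44 CPM in KO and 0, 0, 0 and 0.216 CPM in WT, and the protamine gene *Prm1* at 2.9, 0, 1.39 and 7.04 CPM in KO and 0, 0.105, 0.173 and 0.72 CPM in WT. They were low in WT and uneven in KO, had SE of 2.45 and 1.71 on the log2 scale and did not pass. None of 26 genes for histone H3.3 and histone chaperones was called with edgeR or DESeq2 (list median 0.04), and 2 had an unadjusted p under 0.05. *H3f3a* and *H3f3b*, which encode H3.3, had log2 fold changes of -0.05 (SE 0.12) and 0.11 (SE 0.11), and the chaperone gene *Hira* of 0.06 (SE 0.12).

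The 8 largest rises among genes without overlap and with a KO mean of at least 1 CPM were genes barely detected in WT. *Olfr112*, of the olfactory receptor family, was at 0.363, 0.196, 2.77 and 4.33 CPM in KO and 0, 0, 0 and 0.144 CPM in WT, with 2 counts in all WT libraries together. Its KO to WT ratio was 51.6, with a 95% counting interval of 14 to 431. The actin-related gene *Actrt2* was at 0.725, 0.131, 1.98 and 6.16 CPM in KO with 3 counts in all of WT (ratio 40.1, interval 13.4 to 197). *Cypt4*, of a cysteine-rich perinuclear theca family, was at 0.725, 0.392, 1.06 and 3.18 CPM in KO with 2 counts in WT (ratio 35.8, interval 9.58 to 301). *G6pd2*, an autosomal retrogene of the glucose-6-phosphate dehydrogenase gene, was at 0.943, 0.196, 2.31 and 4.0 CPM in KO with 3 counts in WT (ratio 33.2, interval 11.1 to 163). The antisense transcript *4930515L19Rik* was at 0.798, 0.262, 1.92 and 1.9 CPM in KO with 2 counts in WT (ratio 32.6, interval 8.7 to 274). In all 5, KO_d20_2 was the lowest KO library and still above the WT libraries. *Olfr112*, *Actrt2*, *Cypt4*, *G6pd2*, *4930515L19Rik* and *Ccdc183* were called in 3, 2, 2, 7, 4 and 3 of the 8 fits that leave out a library, and without WT_d20_2 *Olfr112*, *Actrt2*, *Cypt4*, *4930515L19Rik* and *Ccdc183* lost the call (adjusted p = 0.0666, 0.127, 0.0901, 0.0522 and 0.0637). In *Olfr112*, *Cypt4* and *4930515L19Rik* the WT counts were all in WT_d20_4. *Gm20268*, a noncoding transcript (log2 fold change 5.06, SE 0.81, adjusted p = 0.00375), *Apobec4*, of the cytidine deaminase family (log2 fold change 4.75, SE 0.82, adjusted p = 0.00609), and *Ccdc183* (log2 fold change 4.74, SE 1.04, adjusted p = 0.0157) completed these 8. *Apobec4* was at 2.18, 0.785, 5.35 and 8.67 CPM in KO and 0.157, 0.105, 0.0578 and 0.288 CPM in WT.

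Some rises held in all 8 fits that leave out a library. The lowest p among them belonged to *Gm6408*, a protein-coding gene at chr5:146481965-146484704 (plus strand). It was at 1.6, 1.05, 2.38 and 2.17 CPM in KO and 0.393, 0.105, 0.173 and 0.432 CPM in WT (log2 fold change 2.64, SE 0.33, adjusted p = 0.000278). *Speer4b*, of a testis family of glutamate-rich proteins, was at 4.28, 1.83, 4.95 and 5.55 CPM in KO and 0.786, 0.421, 0.116 and 0.792 CPM in WT (log2 fold change 2.99, SE 0.39, adjusted p = 0.000466). Both were even across KO libraries compared with the acrosome genes. Chosen by symbol after their values were seen, 8 of 14 tested genes named *Speer* rose and none fell. These genes have near-identical copies, and since reads with several alignments were discarded, their levels and the split between copies are uncertain. By gene type, 68 rises and 14 falls were long noncoding transcripts, that is 13.3% and 22.6%, where 6.41% of the tested genes are of this type. On chromosome X, 40 of 729 tested genes rose (5.49%) and 5 fell, where 2.98% and 0.361% of all genes did, and the median over all X genes was -0.09.

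Cell type markers were set beside these gene groups. Of the round spermatid list, 13 of 19 markers rose, against 2.98% of all genes, with a median log2 fold change of 2.37, and of the elongating spermatid list 7 of 17, with a median of 3.41. For the round spermatid list the count was 2 without WT_d20_1, 1 without WT_d20_2, 1 without WT_d20_3, 6 without KO_d20_3 and 1 without KO_d20_4, and for the elongating spermatid list 2 without WT_d20_1, 0 without WT_d20_2, 0 without WT_d20_3, 4 without KO_d20_3 and 1 without KO_d20_4. Without WT_d20_2 the medians were 2.34 and 3.25. Members of these lists are also in the acrosome, tail and kinase lists, so the lists are not independent of each other. The mean log2 level of the round spermatid list, centred for each gene on its mean over the 24 libraries, was -1.51, -2.43, -0.72 and -0.06 in KO replicates 1 to 4 and -3.08, -3.52, -3.42 and -2.29 in WT replicates 1 to 4. Its order within KO, with replicate 4 highest and replicate 2 lowest, is that of the rises as a whole, and WT_d20_4 was above KO_d20_2. Of 17 pachytene markers, *Pgk2* alone was called (list median 0.16). With edgeR and with DESeq2, none was called among 13 early meiosis markers (median -0.12), 17 spermatogonia markers (median -0.18) or 35 genes of recombination and the synaptonemal complex (median -0.11), of which 2, 2 and 3 had an unadjusted p under 0.05. When WT_d20_2 or KO_d20_2 was left out, 1 spermatogonia marker was called lower.

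No somatic marker was called with edgeR, and DESeq2 called 1 Leydig cell marker higher and 1 peritubular marker lower. Without KO_d20_2, edgeR called 3 Leydig cell markers and 3 genes of steroid and cholesterol synthesis higher. The 9 Leydig cell markers all had a log2 fold change above 0, where 50.9% of all genes tested did, with a median of 0.77, and 3 had an unadjusted p under 0.05. The summed level of that list was 508, 341, 775 and 878 CPM in KO and 353, 459, 460.1 and 432 CPM in WT, so that the groups overlapped. The 10 peritubular markers all had a log2 fold change below 0 (median -0.40), with WT_d20_3 the highest library, and 3 had an unadjusted p under 0.05. The medians were -0.14 for 15 Sertoli cell markers, -0.36 for 11 endothelial markers, 0.17 for 11 macrophage markers and 0.68 for 3 red blood cell markers, with 2, 1, 0 and 1 at an unadjusted p under 0.05. The summed Sertoli cell list lay at 2324 to 2539 CPM in KO and 2568 to 3303 CPM in WT, without overlap. The sums of the red blood cell list, 13.5 to 19.4 CPM in KO and 5.11 to 12.8 CPM in WT, did not overlap either. The median of 31 genes of steroid and cholesterol synthesis was 0.07, and that of 12 mitochondrially encoded genes -0.45, none of them called with either tool, and 5 and 3 had an unadjusted p under 0.05. The epididymis list, with 5 tested genes, followed the high libraries WT_d20_3 and KO_d20_3. The part of these markers in the changes of other genes was not tested.

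**Figure D4:**
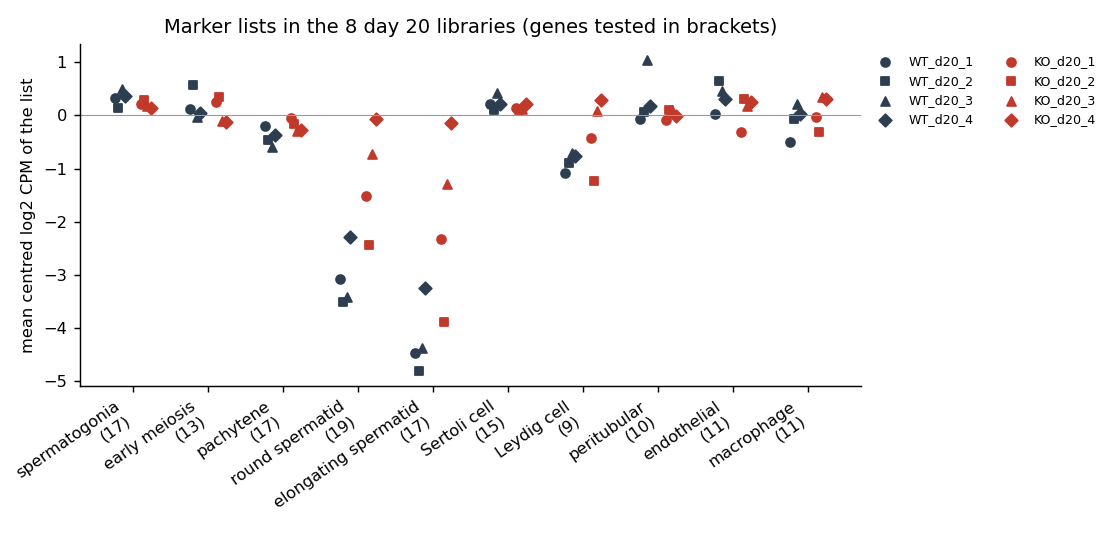
Mean centred log2 CPM of 10 marker lists (vertical axis) in each day 20 library (dark blue WT, red KO, shape by replicate number; the number of genes tested is in brackets). The round and elongating spermatid lists spread widely within KO and are highest in KO_d20_4. The other germ cell and somatic lists lie between -0.60 (pachytene, WT_d20_3) and 0.65 (endothelial, WT_d20_2), apart from the Leydig cell list and WT_d20_3 in the peritubular list.

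When a stage score, which sets the level of round spermatid markers against that of pachytene markers in each library, was added to the fit, 6 genes were higher (0.0349%) and 8 lower (0.0466%) in KO. The score was -1.45, -2.26, -0.43 and 0.21 in KO replicates 1 to 4 and -2.88, -3.06, -2.82 and -1.93 in WT replicates 1 to 4, and it is built from genes that are themselves among the rises. Of the original calls, 5 rises and 8 falls were kept. The median log2 fold change of the 511 rises was 0.82 in this fit, and that of the 62 falls -0.91. Of the rises that kept their call, *Acrv1*, itself a marker in the score, went to 1.20, *Apobec4* to 2.19 and *Gm6408* to 2.07. Among the rises that lost it, *Gapdhs* went to 1.29, *Akap3* to 0.25 and *Kcnu1* to 0.13. Among the falls, *4933406K04Rik* was at -3.50, *A330076C08Rik* at -2.43, *Asb4* at -2.48, *Cd3e* at -2.65 and *H2afy3* at -1.95, all still called, while *Nps*, at -2.24, lost its call (adjusted p = 0.22 in edgeR).

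The same genes were then followed at days 22, 24 and 26. The libraries of these days are not compared at day 20, but they enter its filter, scaling and spread. For the rises, the median log2 fold change was 0.80 at day 22, -0.08 at day 24 and 0.04 at day 26, beside 0.01, -0.01 and -0.04 over all genes tested. At day 22, 449 of the 511 were above 0 (87.9%, where 52.1% of all genes were) and 9 were called higher, where 1.26% of all genes were, and none was called at days 24 or 26, where 0.0175% and 0% of all genes were called higher (with edgeR, 1 and 11 of the rises were above 0 at an unadjusted p under 0.05). In WT testis, 415 of the 511 rises were higher at day 26 than at day 22 (81.2%), where 13% of all genes were, with a median log2 difference of 2.28. The filter of genes to test ran over all 24 libraries, so a gene low at day 20 could enter through older libraries. Of the 511 rises, 327 passed it on the day 20 libraries alone, so the filter may have raised this share. These 415 are 18.6% of the 2231 genes that were higher in older WT testis. *Akap4*, for example, was higher by 4.25 on the log2 scale at day 26 in WT, and *Acrv1* by 2.87.

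The falls were followed in the same way. Their median was -0.83 at day 22, -0.87 at day 24 and -0.85 at day 26. At day 22, 34 of 62 were called lower, where 1.25% of all genes were, at day 24 9 of 62 (0.0699% of all genes) and at day 26 6 of 62 (0.0466%). The last 2 days have 2 libraries per genotype. In WT testis between days 22 and 26, 1 of the falls was higher and 4 were lower (13% of all genes were higher and 1.33% lower), with a median log2 difference of -0.08. *4933406K04Rik* had log2 fold changes of -3.06, -2.36 and -2.25 at days 22, 24 and 26, *A330076C08Rik* of -3.11, -3.09 and -2.43, *Asb4* of -3.56, -2.79 and -2.60 and *Mdga2* of -1.48, -1.62 and -1.70, each called at every day. *Cd3e* went from -2.42 at day 20 to -1.67, -1.28 and -0.71, and was called at days 20 and 22. Of the falls of high level, *Gm2a* was at 0.01, 0.25 and 0.29 and *Vcl* at -0.02, -0.06 and -0.12, and neither was called at a later day.

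**Figure D5:**
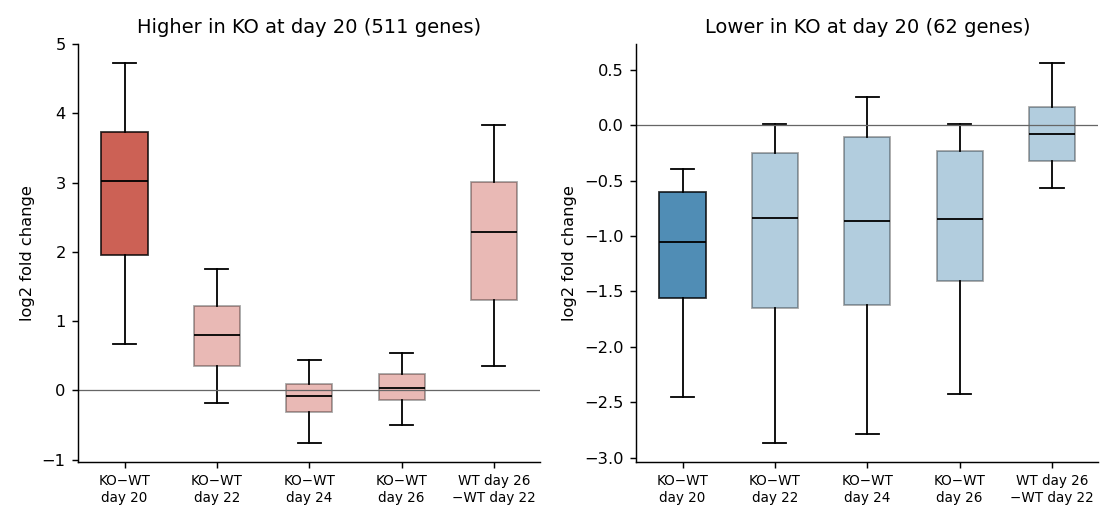
Log2 fold changes of the 511 rises (left) and 62 falls (right) at day 20, in KO against WT at each day and in WT day 26 against WT day 22; boxes span the middle 50% of genes, lines mark medians and whiskers the 5th to 95th percentiles. Most rises are genes that are higher in older WT testis, and their median is near 0 from day 24, while the falls stay below 0.

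Whether the KO effect differed between days was tested for each gene. Against day 22 the effect differed in 1 gene (0.00582% of those tested), *Gm6408*, by 2.57 (SE 0.40, adjusted p = 0.045) on the log2 scale. Against day 24 it differed in 6 genes (0.0349%): *Gm6408*, *Speer4b*, *Olfr701*, *Zscan10* and *4921534H16Rik* were higher in KO at day 20 and not at day 24, and *Noxred1* was called higher in KO at day 24 and not at day 20. Against day 26 it differed in none, with 1857 genes at an unadjusted p under 0.05. These 3 tests were made with edgeR over all genes. The counts were larger without KO_d20_2, at 77, 401 and 326 genes for days 22, 24 and 26, and without WT_d20_4, at 23, 85 and 2. No gene differed from day 22 without KO_d20_3, KO_d20_4, WT_d20_1, WT_d20_2 or WT_d20_3, and without the same libraries 1, 1, 1, 2 and 1 genes differed from day 24. For the other rises and falls the main fit did not show a difference in the KO effect between days, while some of the fits without 1 library called more genes.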

How the data were processed

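Testis RNA of *Atad2* KO and WT mice at postnatal days 20, 22, 24 and 26 was sequenced from ribosome-depleted, stranded paired-end libraries. The authors aligned reads to mm10 with STAR 2.7.11b, per the labels and methods, and counted exon reads per gene with HTSeq, strand-specifically and discarding read pairs with several alignments. The deposited values are these raw counts per gene, 1 library per file. The annotation release is not given in the sources used here. The extraction text of the labels also mentions purified cell fractions, while tissue and title give testis, and libraries are described as testis. The study's methods state fewer day 20 replicates than the labels, and all 4 per genotype were used.

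Rows that name no gene were left out of library sizes: read pairs without a feature were 47.2% to 58.5% of the total, and pairs with several alignments 5.98% to 13.7%. Of 24456 genes listed, 17170 passed filterByExpr in edgeR 4.0.16 (R 4.3.3) with a minimum count of 10. TMM factors and a quasi-likelihood fit over 24 libraries in 8 groups gave each log2 fold change (KO minus WT), its SE and a p adjusted by Benjamini-Hochberg, and an adjusted p under 0.05 was called changed. No pair of replicates agreed within sampling noise. On simulated counts for the day 20 comparison with 17069 genes, 94% of genes raised 4-fold and 72% of genes raised 2-fold were recovered, with 27 false calls beside 36 and 47 true ones among genes raised 2-fold and 4-fold and 36 and 46 among genes lowered by as much. With day 20 alone there were 9 false calls. The 27 false calls are a larger share of the simulated calls than the threshold of 0.05. Counts were simulated independently for each gene with the same spread trend at every day, whereas the real rises moved together between libraries. The recovery therefore does not measure the share of false calls among the genes called here. Alternatives used DESeq2 1.42.0, limma 3.58.1 (voom), DESeq2 size factors, no filter, day 20 alone, a replicate block, a stage score and each day 20 library left out.

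Genes were named by rule: *Atad2*, the 8 largest non-overlapping changes in each direction with a group mean of at least 1 CPM, the 6 of highest level, those called with day 20 alone, up to 12 called in all 8 leave-one-out fits, and up to 4 called members of each of 31 lists, from which the text draws. List members without a call are given as comparison. Some called list members are not reported here. A gene with 1 to 3 counts over all WT libraries has a ratio of CPM with an exact counting interval, and genes at 0 a bound from 3 counts in the shallowest library. Gene positions and types are from GENCODE M21 or RefSeq GRCm38.p6. The members and lists were chosen with earlier results of these data known.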

Additional observations from a re-analysis of the deposited data

Results flagged for a closer look

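In 206 groups of 4 day 20 libraries, the highest or lowest library was compared with the others by Dixon's ratio, which by chance marks about 1 in 20 groups. WT_d20_4 stood above the other WT libraries for 10 named rises: *Acrv1* at 2.09 CPM, *Actl7a* at 1.73, *Capza3* at 0.720, *Gapdhs* at 0.936, *Spaca1* at 3.82, *Spam1* at 1.94, *Zp3r* at 1.37, and *4930515L19Rik*, *Cypt4* and *Olfr112* at 0.144 CPM each. The last 3 rest on 2 counts each in that library.

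WT_d20_2 stood apart in summed list levels. Its early meiosis list was at 5663 CPM (others 2676 to 3026), its histone to protamine list at 7789.7 CPM (others 2999 to 3627), its imprinted gene list at 4324 CPM (others 3552 to 3622) and its mitochondrially encoded genes at 114034 CPM (others 40123 to 52545). Its elongating spermatid list, at 79.4 CPM (others 159.9 to 174), and its serine kinase and actin-like list, at 105 CPM (others 192 to 208), were the lowest in WT. Mitochondrial ribosomal RNA took 3.26% of its gene counts (other WT libraries 0.484% to 0.816%).

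The epididymis list was at 279 CPM in WT_d20_3 and 55.1 CPM in KO_d20_3, and the spermatogonia list at 440.2 CPM in KO_d20_2 (other KO libraries 393 to 397). The cause of these differences was not tested.

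The KO effect differed between days, by a test of the difference, in 6 genes. *Gm6408* was higher in KO at day 20 than at day 22 by 2.57 on the log2 scale (adjusted p = 0.0450 in edgeR) and than at day 24 by 3.42 (adjusted p = 0.00690). Against day 24 the difference was 5.22 for *4921534H16Rik*, 4.33 for *Olfr701*, 3.48 for *Speer4b* and 2.89 for *Zscan10*, and -3.13 for *Noxred1*, with an adjusted p of 0.0402 in edgeR for each. *Noxred1* had a log2 fold change of -0.53 at day 20 and 2.60 at day 24.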

How the results depend on the processing

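All 511 rises and 62 falls rest on a spread estimated over 24 libraries. The common biological coefficient of variation, a measure of spread between libraries, was 0.201 in that fit and 0.228 with day 20 alone. For days 22, 24 and 26 alone it was 0.193, 0.151 and 0.118. So the shared fit used a smaller spread than the day 20 libraries gave, and the effect of this on the counts was not tested. DESeq2 called 888 genes, 128 of them lower, and limma voom with sample weights 228 lower. With the stage score 14 were called, 6 higher and 8 lower. With day 20 alone 5 were called, 0 higher and 5 lower, and *Atad2* was at -1.68 (adjusted p = 0.0658 in edgeR). In fits added after seeing the data, day 20 alone without WT_d20_2 gave 11, 0 higher and 11 lower. DESeq2 size factors (559 genes) and no filter on low counts (500 genes) changed the counts by less than 1.5 times. Leaving out 1 day 20 library gave 151 to 780 changed genes, 102 to 716 higher and 26 to 64 lower, and *Atad2* stayed called at -1.80 to -1.38. Of the 67 other named genes, 1 to 37 lost their call when 1 library was left out, 58 with the stage score, 18 with voom and none with DESeq2, and none changed direction. With day 20 alone 53 lost it, 5 kept it and the others were not tested. The KO effect differed from that at days 22, 24 and 26 in 1, 6 and 0 genes, in 0, 6 and 0 with DESeq2 size factors, in 0, 2 and 0 without the filter, and with 1 library left out in 0 to 77, 1 to 401 and 0 to 326. The cause of these moves was not tested. The depth limits what can be said of genes under 0.316 CPM in WT.

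With a replicate block 595 genes were called (539 higher, 56 lower), and the KO effect differed from days 22, 24 and 26 in 12, 140 and 90 genes. A replicate block with day 20 alone, added after seeing the data, gave 267 (246 higher, 21 lower). Deviations of same-numbered KO and WT libraries correlated across genes at 0.07, 0.23, 0.25 and 0.41. KO_d20_1 correlated best with WT_d20_2 (0.29) and the other 3 KO libraries with their own number, a hint of pairing from the data and not from the design.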
